A study of Mus musculus with 12 samples.

Results

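P3D8 and P3E3 are fibroblast lines, each expanded from a single cell of a mouse digit culture, a β-galactosidase (lacZ)-expressing culture of P3, the terminal phalanx. Cartilage made from these lines was compared, as 3 P3D8/BMP9 libraries against 3 P3E3/BMP9 libraries, which are 6 of the 12 libraries of the study. For both groups, cells at passage 6 were aggregated in suspension with 50 ng/ml BMP2 for 4 days and then differentiated with 50 ng/ml BMP9 for 14 days, in DMEM with fetal bovine serum. The other 6 libraries are P3D8 and P3E3 monolayers, 3 each, which received neither BMP2 nor BMP9 and were grown on fibronectin with EGF, PDGF and LIF. Each line is 1 clone, so a difference between the lines cannot be told apart from a difference between 2 single cells of the parental culture. The libraries of a group came from separate cultures. The comparison asks how the transcriptomes of 2 cartilages differ when the cell of origin is the only planned difference.

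The values were normalized counts of polyadenylated RNA, that is, read counts per RefSeq transcript divided by a size factor per library. Transcripts averaging 10 or more normalized counts across the cartilage libraries were taken, which gave 5462 of 106518 transcripts (5.13%), from 5332 genes of the 35976 symbols in the table. *Prodh* lay just inside this limit, with a mean of 10.0, and *Nrip2* just outside it, with a mean of 9.999. The limit left out 101056 transcripts, of which 85969 were listed at 0 in all 6 libraries. Genes with several transcript entries are counted low in this table. *Prg4*, *Erg*, *Fn1* and *Col11a2* stood at 0 in every cartilage library, and these zeros are not read as absence of expression.

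The 12 libraries held 7269748 to 8662298 counted reads each. In 4 of the 12, 1 per group, the sample's cell line field gives one clone and its title the other. In cartilage these were replicate 1 of P3D8/BMP9 and replicate 1 of P3E3/BMP9. Libraries were grouped by title. Without those replicates *Adamts2*, *Col1a2*, *Kera*, *Mmp14*, *Pthlh*, *Runx2*, *Sema3a*, *Serpinf1*, *Tgfb1*, *Trps1* and *Wnt5a* no longer passed at an adjusted p under 0.05. *Mmp13*, *Pck2* and *Tubb3* still passed but fell short of the fold threshold given below. Pearson's r between log2 values, across the tested transcripts, was 0.986 to 0.993 among P3D8/BMP9 libraries and 0.984 to 0.990 among P3E3/BMP9 libraries, replicate 1 of each included, and 0.929 to 0.948 between the lines.

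Cartilage is built by chondrocytes under the transcription factor Sox9, which lay down collagen fibrils and proteoglycans. Articular chondrocytes stay small, persist at the joint surface and make lubricating and intermediate-layer proteins such as cartilage intermediate layer protein. Growth plate chondrocytes instead enlarge to hypertrophy, switch to collagen X and then mineralize their matrix. Indian hedgehog and parathyroid hormone-related protein regulate when hypertrophy begins. BMP9 (also known as Gdf2) is a BMP ligand that drives chondrogenesis in digit fibroblasts.

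P3D8/BMP9 and P3E3/BMP9 differed in many transcripts. The measure was the log2 fold change (log2FC, P3D8/BMP9 minus P3E3/BMP9), and a transcript was called where it reached 1.5 in either direction with an adjusted p (Benjamini-Hochberg, limma) under 0.05. Of the tested transcripts 281 were higher in P3D8/BMP9 (5.14%) and 199 were lower (3.64%), 480 in all (8.79%). With no limit on the fold, 1173 were higher (21.5%) and 1521 lower (27.8%), and the median log2FC over all tested transcripts was -0.04. The counts of higher and lower members in the gene lists below have no fold limit and are to be read beside these shares. In 3165 transcripts (57.9%) all values of one line lay above all values of the other. Among transcripts with a mean of 50 or more the calls were 102 higher and 110 lower. Among genes with 1 entry they were 139 and 156. The surplus of higher calls thus came with low counts and with genes of several entries.

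Where the mean was 50 or more and the lines did not overlap, the called transcripts of *Myoc*, *Ccl7*, *Cilp2*, *Clstn2*, *Reep1*, *Pgm5*, *Cilp*, *Col8a1*, *Ccl2*, *C3*, *Tnfrsf1b* and *Clec14a* exceeded P3E3/BMP9 by most. *Myoc*, which encodes the secreted glycoprotein myocilin (chromosome 1, 162639150 to 162649694, mm10), had 528, 597 and 561 normalized counts in the P3D8/BMP9 libraries, against 2.30, 1.65 and 3.43 in the P3E3/BMP9 libraries. It was thus well counted in every library of one cartilage and nearly uncounted in the other, a log2FC of 7.38 (standard error 0.22, adjusted p = 2.92e-08 from limma). *Cilp*, which encodes cartilage intermediate layer protein (chromosome 9, 65265180 to 65280614), had 1783, 1903 and 1848 in P3D8/BMP9, against 116, 134 and 120 in P3E3/BMP9. The log2FC was 3.90 with a standard error of 0.09 and an adjusted p of 4.35e-09 from limma, so the lines were far apart relative to the spread of their libraries. Its paralog *Cilp2* had 442, 445 and 541 in P3D8/BMP9, against 22.2, 19.8 and 11.2 in P3E3/BMP9, a log2FC of 4.72. Both members of the Cilp family were therefore higher in P3D8/BMP9 in every library.

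The other genes of this group fall into several kinds. *Col8a1*, a short-chain collagen of vessel walls and other basement membranes, had 4842, 5096 and 5439 normalized counts in P3D8/BMP9, against 357, 386 and 395 in P3E3/BMP9 (log2FC 3.75). *Ccl2* and *Ccl7* encode monocyte chemokines and are neighbours on chromosome 11. *Ccl2* was at 234 to 238 in P3D8/BMP9 and at 12.9 to 25.3 in P3E3/BMP9, and *Ccl7* at 250 to 264 and at 6.87 to 10.7. *C3*, the central complement component, had 15181, 17332 and 12895 in P3D8/BMP9, against 1316, 1260 and 1973 in P3E3/BMP9 (log2FC 3.34). *Tnfrsf1b*, a receptor of tumour necrosis factor, had 901 to 1199 in P3D8/BMP9 and 109 to 116 in P3E3/BMP9. The remaining 4 are *Clstn2* (a calsyntenin), *Reep1* (an endoplasmic reticulum shaping protein), *Pgm5* (a phosphoglucomutase-like protein of adhesion sites) and *Clec14a* (a C-type lectin of endothelium), with log2FC values of 4.58, 4.18, 3.98 and 3.25.

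**Figure D1:**
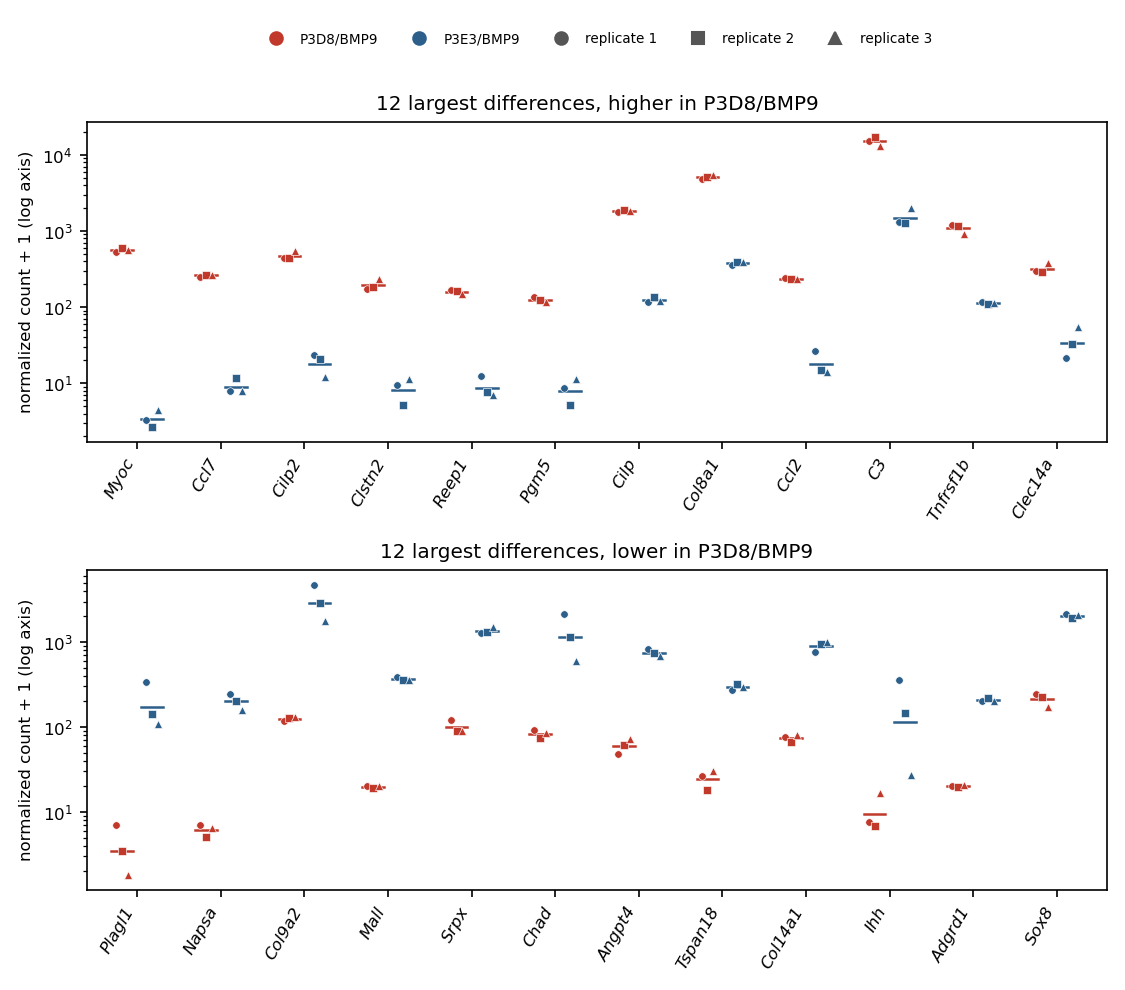
Normalized counts (plus 1, log axis) of the 24 transcripts named by size of difference, with P3D8/BMP9 in red on the left and P3E3/BMP9 in blue on the right of each gene. Symbols are replicates 1 to 3 and bars are means of log2 values. No gene overlaps between the lines, and the P3E3/BMP9 values of *Ihh*, *Chad* and *Plagl1* spread widely, with replicate 1 highest and replicate 3 lowest.

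In the other direction, *Plagl1*, *Napsa*, *Col9a2*, *Mall*, *Srpx*, *Chad*, *Angpt4*, *Tspan18*, *Col14a1*, *Ihh*, *Adgrd1* and *Sox8* were lower in P3D8/BMP9 by most. *Plagl1*, an imprinted zinc finger factor (chromosome 10, 13090832 to 13131694), had 5.97, 2.47 and 0.791 normalized counts in P3D8/BMP9, against 340, 142 and 106 in P3E3/BMP9. Its log2FC was -5.63 (standard error 0.53, adjusted p = 2.1e-05 from limma), with a wide spread in both groups. *Napsa*, an aspartic protease, had 5.97, 4.12 and 5.54 in P3D8/BMP9, against 244, 204 and 160 in P3E3/BMP9 (log2FC -5.03). *Mall*, a membrane raft protein of the MAL family, had 18.1 to 19.4 in P3D8/BMP9 and 360 to 383 in P3E3/BMP9. *Napsa* and *Mall* were listed at 0 in all 6 monolayer libraries.

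Several of these 12 genes encode matrix proteins. *Col9a2*, a chain of the collagen that coats collagen II fibrils, had 116, 126 and 130 in P3D8/BMP9, against 4693, 2910 and 1747 in P3E3/BMP9 (log2FC -4.53). *Chad*, which encodes chondroadherin, a cell-binding protein of cartilage matrix, had 92.5, 73.3 and 83.1 in P3D8/BMP9, against 2134, 1150 and 603 in P3E3/BMP9 (log2FC -3.77). *Col14a1*, a fibril-associated collagen of dense connective tissue, had 74.6, 65.1 and 79.9 in P3D8/BMP9, against 767, 951 and 999 in P3E3/BMP9 (log2FC -3.61). *Srpx*, a sushi-repeat protein, was at 87.8 to 120 in P3D8/BMP9 and at 1285 to 1485 in P3E3/BMP9. *Sox8*, a SoxE factor related to *Sox9*, had 244, 227 and 171 in P3D8/BMP9, against 2118, 1916 and 2085 in P3E3/BMP9 (log2FC -3.26). *Angpt4*, a ligand of the Tie2 receptor, had a log2FC of -3.65, *Tspan18*, a tetraspanin, one of -3.61 and *Adgrd1*, an adhesion G protein-coupled receptor, one of -3.35.

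The labels were checked against chondrocyte genes. *Sox9* was abundant in both cartilages, at 3953, 3791 and 3864 normalized counts in P3D8/BMP9 and at 5096, 4717 and 5072 in P3E3/BMP9, and was slightly lower in P3D8/BMP9 (log2FC -0.36, adjusted p = 0.00211 from limma). *Fmod*, which encodes the collagen-binding proteoglycan fibromodulin, was among the most counted transcripts of both, at 162399 to 181666 in P3D8/BMP9 and at 139930 to 185319 in P3E3/BMP9. In monolayer *Fmod* averaged 1.46 in P3D8 and 2.39 in P3E3. *Col2a1* and *Acan*, with 3 and 2 transcript entries, were counted low and overlapped between the lines. Of 11 chondrocyte markers 6 could be tested, and of these 2 were lower in P3D8/BMP9 and none was higher. Summed over the 11 markers, the libraries held 4084 to 4218 normalized counts in P3D8/BMP9 and 7061 to 9922 in P3E3/BMP9, nearly all of it *Sox9* and *Col9a2*. Of these, *Col9a2* had 116 to 130 in P3D8/BMP9 and 1747 to 4693 in P3E3/BMP9.

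Type I collagen took a large share of the counted reads in either cartilage. Genes with several entries are counted low, so components are not ranked. *Col1a1* and *Col1a2* together took 13% to 14.3% of the reads in P3D8/BMP9 and 6.25% to 6.99% in P3E3/BMP9. *Col1a1* had 363870, 354167 and 346567 normalized counts in P3D8/BMP9, against 132435, 112938 and 125176 in P3E3/BMP9 (log2FC 1.53, adjusted p = 8.86e-06 from limma). *Col3a1*, the collagen of reticular fibres, had 144901, 147367 and 132083 in P3D8/BMP9, against 38793, 36732 and 40550 in P3E3/BMP9 (log2FC 1.87). The difference of *Col1a2* was smaller, at 493980 to 547191 against 321102 to 365817 (log2FC 0.65). In bulk samples more fibroblast-like cells and more collagen RNA per cell cannot be told apart. By protein staining after a longer BMP9 culture, the study found collagen I in the fibrous layer around P3D8 cartilage and not in the cartilage. Other highly counted transcripts were closer. *Igfbp4*, an IGF-binding protein, had a log2FC of 0.18 and did not pass the test. The Wnt inhibitor *Wif1* (-0.63) and the serpin *Serpinf1* (-0.39) were lower in P3D8/BMP9. *Wif1* did not pass in the fit of all 12 libraries (adjusted p = 0.0734 from limma), nor did *Serpinf1* without P3D8 replicate 1 or 2 or P3E3 replicate 2 (0.0694 to 0.0822).

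Matrix genes were next sorted by the tissue that they are known from. Of 12 tested genes of articular cartilage and joints, out of 24 listed, 11 were higher in P3D8/BMP9 at an adjusted p under 0.05 and none was lower, with a median log2FC of 1.25. *Osr1*, a zinc finger factor of the developing joint, had 31.3, 39.6 and 31.6 normalized counts in P3D8/BMP9, against 7.66, 6.61 and 11.2 in P3E3/BMP9 (log2FC 1.91). *Enpp2*, which encodes autotaxin, the enzyme that makes lysophosphatidic acid, had 384, 553 and 373 in P3D8/BMP9, against 119, 126 and 149 in P3E3/BMP9 (log2FC 1.71). The Wnt modulator *Sfrp2* had 101, 83.2 and 83.9 in P3D8/BMP9, against 46.0, 23.1 and 20.6 in P3E3/BMP9, and it was listed at 0 in all monolayers. *Thbs4*, a thrombospondin of tendon and joint, was at 15.0 to 26.1 in P3D8/BMP9 and at 0.827 to 3.06 in P3E3/BMP9. Members with smaller differences were *Tnfrsf11b*, *Vcam1*, *Pthlh*, *Htra1* and *Foxo1* (log2FC 0.50 to 0.87). *Foxo3* (0.08) did not pass. The listed joint gene *Gdf5* fell under the limit on the mean and was not tested, and the study names it as upregulated in P3E3-derived cartilage. *Frzb*, described below as made by articular chondrocytes, is not on the list and was lower (-1.87). The list shares *Cilp2* and *Thbs4* with the tendon list that follows. The study reports *Cilp*, *Cilp2*, *Osr1*, *Sfrp2*, *Enpp2* and *Thbs4* as higher in P3D8-derived cartilage from these same libraries. The list was chosen with such results known, so its counts are a description. All P3E3/BMP9 values of *Thbs4* lay under the limit on the mean, which it passed through P3D8/BMP9.

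Of 9 tested tendon and ligament genes, 5 were higher in P3D8/BMP9 and none was lower (median 1.83). *Scx*, which encodes scleraxis, the tendon progenitor factor, had 109, 85.7 and 72.8 normalized counts in P3D8/BMP9, against 10.7, 9.92 and 9.44 in P3E3/BMP9 (log2FC 3.01). In monolayer it averaged 230 in P3D8 and 206 in P3E3. *Itga11*, a collagen-binding integrin chain, had 1466, 1379 and 1389 in P3D8/BMP9, against 303, 279 and 321 in P3E3/BMP9 (log2FC 2.23). *Kera*, a corneal and tendon proteoglycan, was higher as well (log2FC 1.83). Its call was lost without P3D8 replicate 3 (adjusted p = 0.0536 from limma). The tendon factor *Mkx* had a log2FC of -0.19 and did not pass, with 107 to 139 in P3D8/BMP9 and 113 to 159 in P3E3/BMP9.

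Of 17 tested genes of fibrous connective tissue, 11 were higher in P3D8/BMP9 and 3 were lower (median 0.87). Of the 17, 9 have several transcript entries, and for these a shift between isoforms and a shift in total level cannot be told apart. *Dpt*, which encodes dermatopontin, had 2578, 2431 and 2488 normalized counts in P3D8/BMP9, against 261, 350 and 427 in P3E3/BMP9 (log2FC 2.88). *Col6a3*, a chain of the beaded-filament collagen VI, had 307, 438 and 140 in P3D8/BMP9, against 32.9, 39.7 and 98.7 in P3E3/BMP9 (log2FC 2.37), with replicate 3 of each line closest to the other. The other collagen VI chains did not share that difference, with *Col6a1* at -0.15 (not passing) and *Col6a2* at -0.52. *Fbln1* (fibulin), *Eln* (elastin) and *Svep1* (an adhesion protein of matrix) had log2FC values of 2.29, 1.67 and 1.83. The small leucine-rich proteoglycans, which bind collagen fibrils, divided. *Kera*, *Dcn*, *Ogn* and *Ecm2* were higher, *Lum*, *Epyc* and *Chad* were lower and *Fmod* did not pass, out of 8 tested. *Ogn*, or osteoglycin, was at 21574 to 25609 in P3D8/BMP9 and at 12971 to 15399 in P3E3/BMP9. *Lum*, or lumican, was at 28466 to 33116 in P3D8/BMP9 and at 41298 to 68787 in P3E3/BMP9, and did not pass in the fit of all 12 libraries (adjusted p = 0.0627 from limma).

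Several collagens and proteoglycans of hyaline cartilage went the other way. Of 13 tested, out of 24 listed, 7 were lower in P3D8/BMP9 and none was higher (median -1.12). The 6 that did not pass included *Col2a1* (log2FC 0.04), *Acan* (0.09), *Fmod* (0.14), *Comp* (0.75) and *Col9a1* (-0.83). *Epyc*, which encodes epiphycan of the growth plate, had 2138, 2397 and 1842 normalized counts in P3D8/BMP9, against 8882, 10524 and 14089 in P3E3/BMP9 (log2FC -2.37). *Clec3a*, a cartilage C-type lectin, had 1062, 580 and 986 in P3D8/BMP9, against 12668, 7415 and 4419 in P3E3/BMP9 (log2FC -3.14). *Mia*, a protein secreted by chondrocytes, had a log2FC of -3.61. *Col11a1*, a nucleator of collagen fibrils, had a log2FC of -2.21. *Epyc*, *Clec3a*, *Chad* and *Mia* were listed at 0 in all monolayers.

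**Figure D2:**
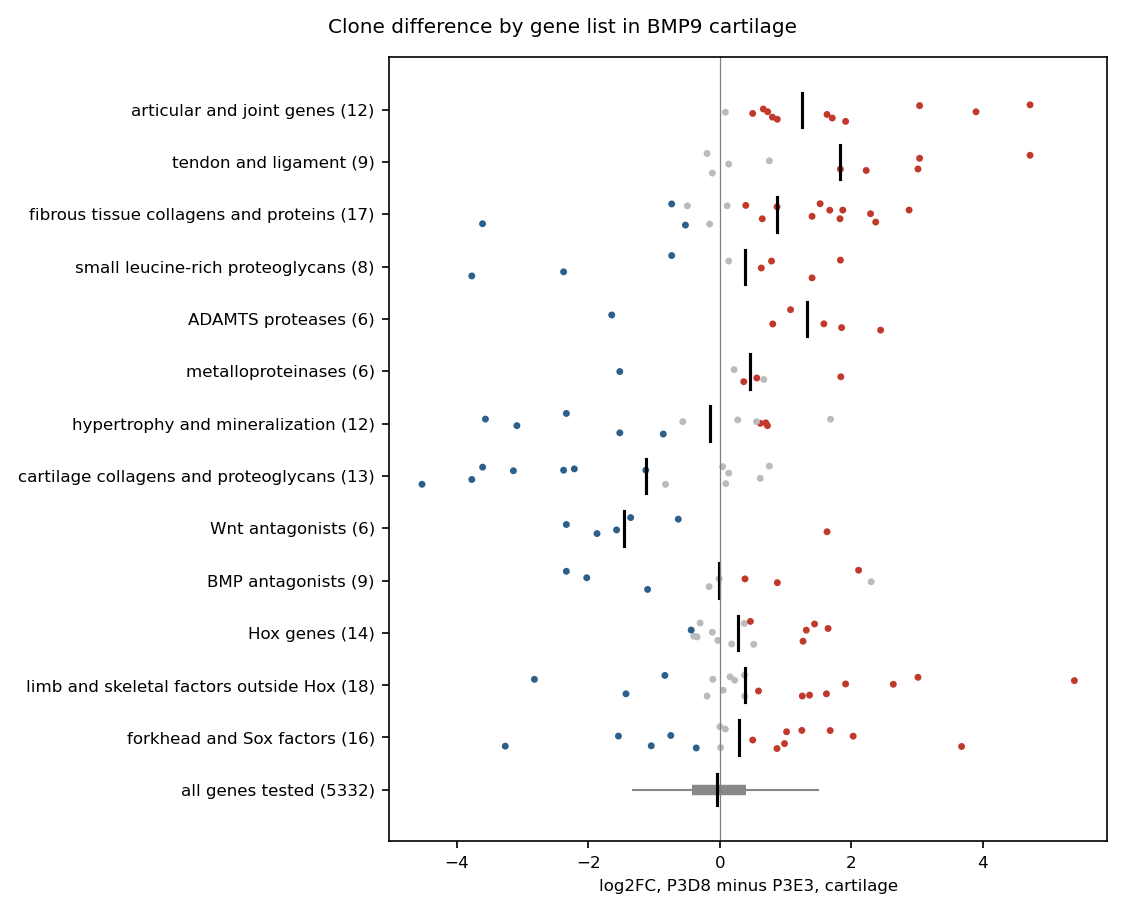
Difference between the lines per gene (log2FC, P3D8/BMP9 minus P3E3/BMP9) in 13 gene lists, with the number of genes tested in parentheses. Red points were higher and blue points lower at an adjusted p under 0.05, grey points did not pass, and black bars are list medians. The lowest row gives all 5332 genes, as percentiles 5 to 95 (thin), 25 to 75 (thick) and the median. Lists were chosen with earlier results of these data known. The medians of the articular and tendon lists (1.25 and 1.83) lie right of 0 and that of the hyaline cartilage list (-1.12) left of it, with single genes of the tendon and hyaline lists on the other side.

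Hypertrophic genes were mixed. Of 8 hypertrophic markers 6 were tested, of which 3 were lower in P3D8/BMP9 and 1 was higher. *Panx3*, a channel protein of prehypertrophic and hypertrophic chondrocytes and of osteoblasts, varied little between libraries. It had 1616, 1510 and 1650 normalized counts in P3D8/BMP9, against 13866, 12779 and 13897 in P3E3/BMP9 (log2FC -3.08, standard error 0.07, adjusted p = 4.8e-09 from limma). *Ihh*, the hedgehog ligand of prehypertrophic cells, had 6.71, 5.77 and 15.8 in P3D8/BMP9, against 359, 145 and 26.6 in P3E3/BMP9. *Sost*, a Wnt antagonist of osteocytes and hypertrophic cells, had 20.9, 22.2 and 53.8 in P3D8/BMP9, against 143, 150 and 163 in P3E3/BMP9 (log2FC -2.33). *Mmp13*, the collagenase that clears hypertrophic matrix, had 465, 366 and 393 in P3D8/BMP9, against 1709, 1067 and 871 in P3E3/BMP9 (log2FC -1.52). *Runx2*, the factor that drives hypertrophy, had 32.4 to 46.1 in P3D8/BMP9 and 21.4 to 28.9 in P3E3/BMP9 by its most counted of 20 entries. Its log2FC of 0.72 passed (adjusted p = 0.0251 from limma), but not without P3D8 replicate 1 or 2 or P3E3 replicate 1 (0.0761 to 0.0990 from limma) or in DESeq2 (0.0588). *Bglap*, which encodes osteocalcin, was higher as well, at 1162 to 1362 in P3D8/BMP9 and at 738 to 898 in P3E3/BMP9 (log2FC 0.62).

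*Col10a1* and *Ibsp*, the collagen X and bone sialoprotein genes, did not pass, and their values overlapped. *Col10a1* had 7033, 3682 and 9738 normalized counts in P3D8/BMP9, against 28246, 12873 and 2233 in P3E3/BMP9. *Ibsp* had 1149, 798 and 1320 in P3D8/BMP9, against 1303, 412 and 66.9 in P3E3/BMP9. With 1 library left out, the log2FC ran from -1.59 to 0.24 for *Col10a1* and from 0.54 to 2.67 for *Ibsp*. *Col10a1* passed as lower without P3E3 replicate 3 (adjusted p = 0.00432 from limma). *Ibsp* passed as higher without P3E3 replicate 1 (0.0079 from limma). In pellet cultures, the study's collagen X staining was positive for P3E3 and negative for P3D8. Over the 3640 transcripts averaging 50 or more, *Ibsp*, *Ihh* and *Col10a1* had the widest ranges within P3E3/BMP9, at 4.26, 3.71 and 3.66 on the log2 scale, against a median range of 0.24. Within P3D8/BMP9 the median range was 0.21. Ranges above 1 were found for 50 transcripts in P3D8/BMP9 and for 103 in P3E3/BMP9. In all 3 hypertrophic genes, and in *Chad*, *Clec3a* and *Col9a2*, replicate 1 of P3E3/BMP9 was highest and replicate 3 was lowest. That was not the common order among the 103 transcripts, where replicate 3 was highest in 69 and lowest in 31. *Panx3* and *Sox9* did not show this spread.

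**Figure D3:**
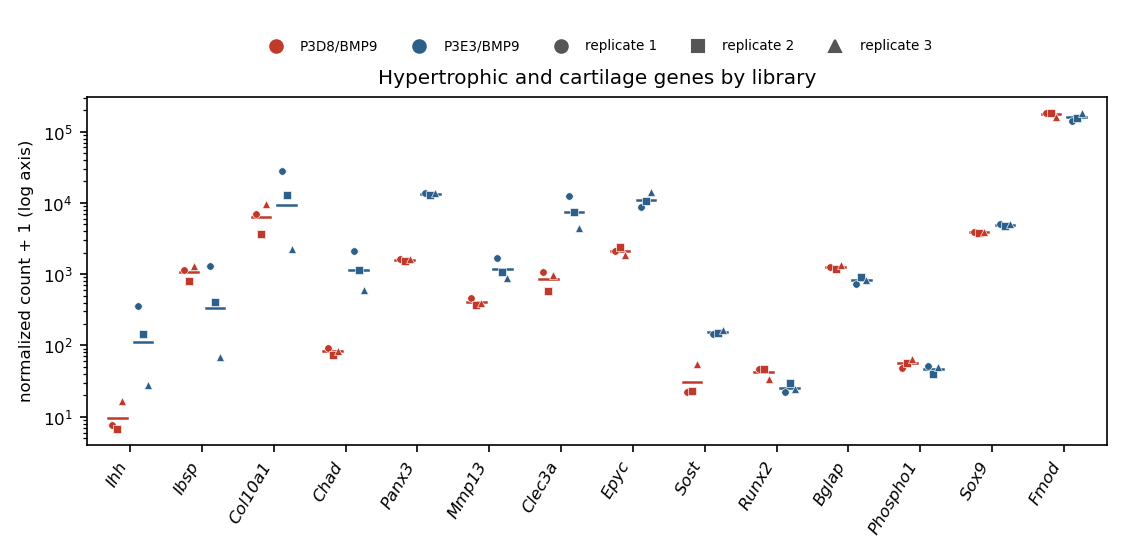
Normalized counts (plus 1, log axis) of hypertrophic and cartilage genes in each library, with P3D8/BMP9 in red on the left and P3E3/BMP9 in blue on the right. The 3 P3E3/BMP9 values of *Ihh*, *Ibsp* and *Col10a1* span a log2 range of 3.66 to 4.26, while those of *Panx3* lie between 12779 and 13897.

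Proteases that cut cartilage matrix were mostly higher in P3D8/BMP9. Of 6 tested ADAMTS proteases, 5 were higher and 1 was lower (median 1.33). *Adamts12* had 151, 167 and 129 normalized counts in P3D8/BMP9, against 38.3, 17.4 and 27.5 in P3E3/BMP9 (log2FC 2.45). *Adamts5*, the main aggrecanase of mouse cartilage, had 79.8, 70.0 and 91.8 in P3D8/BMP9, against 25.3, 20.7 and 18.9 in P3E3/BMP9 (log2FC 1.85). The procollagen N-proteinases diverged, *Adamts2* being higher (1.58) and *Adamts14* lower (-1.64). Of 6 tested matrix metalloproteinases, 3 were higher (*Mmp9*, *Mmp3* and *Mmp14*) and *Mmp13* was lower. *Mmp3* did not pass in the fit of all 12 libraries (adjusted p = 0.0578 from limma). Among protease inhibitors, *A2m*, which encodes alpha-2-macroglobulin, had 5.97, 8.24 and 13.5 in P3D8/BMP9, against 77.4, 83.5 and 86.7 in P3E3/BMP9 (log2FC -3.10), while *Timp2* (0.96) and *Timp3* (0.61) were higher. *Timp3* did not pass in DESeq2 (adjusted p = 0.0952) or without P3D8 replicate 1 or 3 or P3E3 replicate 2 (0.0530 to 0.0768 from limma).

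Both cartilages were made with added BMPs, and their own BMP pathway genes were compared. Among ligands *Bmp2* had 67.9, 77.5 and 73.6 normalized counts in P3D8/BMP9, against 13, 9.09 and 17.2 in P3E3/BMP9 (log2FC 2.43). *Inhbb* (0.98) and *Tgfb3* (0.65) were higher and *Tgfb1* (-0.30) was lower. *Tgfb1* did not pass without replicate 1 or 2 of either line (adjusted p = 0.0737 to 0.0869 from limma) or with a replicate block (0.0643). *Tgfbr3*, the betaglycan co-receptor, had 519, 490 and 518 in P3D8/BMP9, against 91.2, 107 and 160 in P3E3/BMP9 (log2FC 2.12). Of 9 tested secreted antagonists 3 were higher and 3 lower, beside 21.5% higher and 27.8% lower of all transcripts. *Chrdl1* (chordin-like) had 11189, 10461 and 11955 in P3D8/BMP9, against 2024, 2400 and 3576 in P3E3/BMP9. *Nog*, which encodes noggin, had 1069, 1058 and 1323 in P3D8/BMP9, against 5218, 4693 and 4106 in P3E3/BMP9 (log2FC -2.02). Of 10 tested direct BMP targets and Smads, 3 were higher and 1 was lower. *Msx2* had 57.4, 59.3 and 54.6 in P3D8/BMP9 and 0, 1.65 and 0 in P3E3/BMP9, so no fold is given. *Smad3* was higher (1.75), *Id2* was lower (-0.62), and *Id3* (-0.09), *Bambi* (-0.18) and *Hey1* (0.16) did not pass.

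Of 18 Wnt ligands and R-spondins 3 were tested, of which 2 were higher in P3D8/BMP9 and *Rspo3* (log2FC 0.17) did not pass. *Wnt10a* had 75.3, 90.6 and 42.7 normalized counts in P3D8/BMP9, against 6.89, 0 and 2.57 in P3E3/BMP9, and *Wnt5a* was higher too (log2FC 1.36, but adjusted p = 0.0678 from limma without both replicates 1). Of 6 tested secreted Wnt antagonists, 5 were lower in P3D8/BMP9 and 1, *Sfrp2*, was higher (median -1.46). *Frzb*, a decoy receptor made by articular chondrocytes, had 5372, 4997 and 5017 in P3D8/BMP9, against 15955, 18754 and 21837 in P3E3/BMP9 (log2FC -1.87). The deacylase *Notum* and the membrane inhibitor *Apcdd1* had log2FC values of -1.35 and -1.57. Among receptors, *Fzd9* (1.13) and *Fzd1* (0.93) were higher, and *Fzd4* (-1.43), *Lgr4* (-1.16) and *Ror2* (-1.65), a receptor of *Wnt5a*, were lower. Of 3 tested feedback genes, *Nkd2* was higher (2.22) and *Znrf3* and *Nkd1* did not pass.

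In the hedgehog pathway, *Ihh* and its target *Gli1* (log2FC -0.73) were lower in P3D8/BMP9, and *Gas1*, a co-receptor, was higher, at 6371 to 8733 in P3D8/BMP9 and at 1097 to 1305 in P3E3/BMP9 (log2FC 2.69). *Pthlh*, which encodes parathyroid hormone-related protein, had 34.6 to 44.7 in P3D8/BMP9 and 19.7 to 27.6 in P3E3/BMP9 (log2FC 0.73, adjusted p = 0.0242 from limma). *Pthlh* did not pass without P3D8 replicate 1 or P3E3 replicate 2 or 3 (adjusted p = 0.0509 to 0.110 from limma) or in DESeq2 (0.0721). In the Notch pathway *Rbpj*, the nuclear effector, was counted at 32.4 to 49.4 in P3D8/BMP9 and at 0 to 6.89 in P3E3/BMP9 by its most counted of 9 entries, and *Notch2* (0.34) did not pass.

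Other growth factor lists held members of both directions, beside 21.5% higher and 27.8% lower of all transcripts. In the FGF and EGF list 5 of 7 tested genes were higher in P3D8/BMP9 and 1 was lower, and in the PDGF, VEGF and angiopoietin list 4 of 7 were higher and 2 lower. Among insulin-like growth factor genes 1 of 6 was higher and 2 were lower, and among neurotrophins and neuropeptides 2 of 6 were higher and 3 lower (median -0.92). *Fgf10*, a limb mesenchyme ligand, had 274, 276 and 289 normalized counts in P3D8/BMP9, against 35.2, 34.7 and 47.2 in P3E3/BMP9 (log2FC 2.82). Of the EGF receptor ligands *Ereg* (2.54) and *Hbegf* (0.47) were higher and *Tgfa* (-1.01) was lower, and the receptor *Egfr* was higher (0.88). *Vegfc*, the lymphangiogenic factor, had 169, 176 and 226 in P3D8/BMP9, against 42.9, 36.4 and 26.6 in P3E3/BMP9 (log2FC 2.41). *Irs1*, the insulin receptor substrate, was lower (-1.76). Lysophosphatidic acid receptors divided, with *Lpar4* at 183 to 217 in P3D8/BMP9 and at 923 to 1222 in P3E3/BMP9 (log2FC -2.41) and *Lpar2* higher (0.74). *Hpgd*, which inactivates prostaglandins, had 152 to 165 in P3D8/BMP9 and 12.4 to 29.1 in P3E3/BMP9 (log2FC 3.04), and the prostaglandin F receptor *Ptgfr* was higher too (2.03). In the axon guidance list of 17 tested genes, 7 were higher and 6 lower. The class 3 semaphorins *Sema3d* (-1.71) and *Sema3e* (-2.10) were lower, and *Sema3a* (2.27), the netrin *Ntn1* (1.5) and the ephrin receptor *Epha2* (1.77) were higher. The call of *Sema3a* was lost without P3D8 replicate 1 (adjusted p = 0.0658 from limma) or replicate 2 (0.0929).

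In the list of chemokines, complement and the NF-kB pathway, 8 of 14 tested members were higher in P3D8/BMP9 and 1, *C2*, was lower (median 1.21). Besides the 4 given above, *Rel*, an NF-kB subunit, had 67.1, 81.6 and 39.6 normalized counts in P3D8/BMP9, against 9.19, 9.92 and 22.3 in P3E3/BMP9 (log2FC 2.15). *Cxcl12*, which retains stem and immune cells, was at 619 to 667 in P3D8/BMP9 and at 142 to 205 in P3E3/BMP9 (log2FC 1.95). *Nfkbia*, the feedback inhibitor, had a log2FC of 0.13 and did not pass. Interferon-stimulated genes were higher in 5 of 11 and lower in 2, led by *Usp18* (2.22) and *Mx1* (2.16), while *B2m*, the light chain of class I major histocompatibility molecules, was lower (-1.15). The NF-kB consensus, searched on both strands in the 250 bases before the start, was found in 4 of the 8 tested members of the first list with a promoter in the RefSeq table (50%), against 5.08% of all tested genes and 4.46% of all genes. The list was chosen for this pathway, so the share describes the list and not the line difference. The match of *Rel* is shown because *Rel* was the called member among these 4. The others, *Cxcl1*, *Cxcl10* and *Nfkbia*, did not pass. It lies at chr11:23771036-23771077 on the minus strand (GRCm38.p6), with the matching bases in capitals.
Rel: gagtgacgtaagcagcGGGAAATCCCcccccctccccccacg

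The distal Hox genes that mark the digit did not pass the test. *Hoxd13* had 2181, 1998 and 1999 normalized counts in P3D8/BMP9, against 2055, 2078 and 2172 in P3E3/BMP9. The log2FC was -0.03 (standard error 0.07) for *Hoxd13* and 0.18 (standard error 0.10) for *Hoxa13*. Of 14 tested Hox genes, 5 were higher and 1, *Hoxa11*, was lower. *Hoxd10* (1.65) and *Hoxa6* (1.44) had the highest log2FC values of the list. Outside the Hox clusters 8 of 18 limb and skeletal factors were higher and 3 lower. *Prrx1*, a factor of limb mesenchyme, had 458, 481 and 450 in P3D8/BMP9, against 202, 174 and 163 in P3E3/BMP9 (log2FC 1.36). *Trps1* (1.62), *Zic2* (2.64) and *Tbx18* (1.25) were higher and *Dlx4* (-1.43) was lower.

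Of 16 tested forkhead and Sox factors, 8 were higher and 5 lower (median 0.29). *Foxf1*, a hedgehog-responsive factor of mesenchyme, had 640, 573 and 604 normalized counts in P3D8/BMP9, against 195, 166 and 206 in P3E3/BMP9 (log2FC 1.68), and *Foxf2*, *Foxq1*, *Foxl1* and *Foxs1* were higher by 0.98 to 2.03. *Foxd1* (-1.54), *Foxa3* (-1.04) and *Foxc1* (-0.74) were lower. Among Sox factors *Sox21* (3.68) was higher, at 28.0 to 35.6 in P3D8/BMP9 and at 0 to 3.83 in P3E3/BMP9. In the AP-1 group *Jun* (1.57) and *Fosl2* (0.92) were higher, *Atf3* (-2.23) and *Nfe2l3* (-3.13) were lower, and *Fos* did not pass, with 142, 63.4 and 359 in P3D8/BMP9 and 199, 191 and 140 in P3E3/BMP9.

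Genes of the amino acid response were lower in P3D8/BMP9. The factor ATF4 is translated under amino acid shortage and other stresses, and it binds a composite element together with C/EBP factors. Of 20 tested ATF4 target genes, 15 were lower and none was higher, with a median log2FC of -0.99, against 1513 lower and 1142 higher of all 5332 genes. *Chac1*, which degrades glutathione, had 746, 647 and 1068 normalized counts in P3D8/BMP9, against 3884, 3472 and 3037 in P3E3/BMP9 (log2FC -2.10). *Trib3*, a pseudokinase that restrains ATF4, had 723, 747 and 1310 in P3D8/BMP9, against 3703, 3376 and 2978 in P3E3/BMP9 (log2FC -1.90). *Pycr1* (proline synthesis), *Adm2* (a secreted peptide) and *Ppp1r15a* (the phosphatase subunit GADD34) had log2FC values of -1.94, -2.13 and -1.84. Replicate 3 of P3D8/BMP9 lay nearest to P3E3/BMP9 in *Chac1*, *Trib3*, *Adm2*, *Ppp1r15a* and *Pck2*. The list's median deviation from each gene's mean was -0.78, -0.97 and -0.17 in P3D8/BMP9 and 0.60, 0.54 and 0.64 in P3E3/BMP9. *Ddit3*, with 4 entries, had a log2FC of 0.11 and did not pass. Of 8 aminoacyl-tRNA synthetases 4 were lower, *Gars* most (-1.09).

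The core of the C/EBP-ATF response element, TGATGNAA, was searched on both strands in the 250 bases before the start. It was found in 6 of the 18 tested target genes with a promoter in the RefSeq table (33.3%), against 2.07% of all tested genes and 3.91% of all genes. All 6 were lower in P3D8/BMP9. Over all listed targets, tested or not, the share was 32.4%. ATF4 binds this element and the list is of its targets, so the share describes the list and not the line difference. The windows of the 6 are shown on the strand of the gene, with the match in capitals. They lie at chr1:191183420-191183459 (*Atf3*, minus strand), chr2:119351033-119351072 (*Chac1*, plus), chr19:43524684-43524723 (*Got1*, minus), chr7:126625557-126625596 (*Nupr1*, minus), chr14:55540147-55540186 (*Pck2*, plus) and chr11:120643828-120643867 (*Pycr1*, minus) in GRCm38.p6.
Atf3: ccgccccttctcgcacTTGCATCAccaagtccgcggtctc
Chac1: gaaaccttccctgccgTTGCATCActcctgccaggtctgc
Got1: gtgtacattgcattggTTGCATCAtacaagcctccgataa
Nupr1: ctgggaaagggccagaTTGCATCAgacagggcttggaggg
Pck2: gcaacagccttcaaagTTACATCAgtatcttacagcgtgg
Pycr1: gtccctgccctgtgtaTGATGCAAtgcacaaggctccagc
The log2FC values were -2.23 for *Atf3*, -2.10 for *Chac1*, -1.94 for *Pycr1*, -1.68 for *Pck2*, -1.62 for *Got1* and -0.43 for *Nupr1*. A match describes the sequence and not a bound site.

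The translation machinery was lower in P3D8/BMP9 with few exceptions. Of 55 tested cytosolic ribosomal protein genes, 51 were lower and none was higher (median -1.23). *Rpl13a* had 6319, 6110 and 7264 normalized counts in P3D8/BMP9, against 23414, 24095 and 23682 in P3E3/BMP9 (log2FC -1.86). The 4 that did not pass, *Rpl10a*, *Rpl3*, *Rps27* and *Rpl18*, each have 2 entries and are counted low. Of 32 translation factors and snoRNA host genes, 27 were lower and none was higher (median -0.98). *Eef1a1*, the elongation factor, had 86662, 86788 and 94932 in P3D8/BMP9, against 174875, 183155 and 193622 in P3E3/BMP9 (log2FC -1.04), and *Snhg12*, a snoRNA host, had 199, 221 and 260 in P3D8/BMP9, against 851, 804 and 701 in P3E3/BMP9 (log2FC -1.79). *Snhg14*, an imprinted snoRNA host, was listed at 0 in all P3D8/BMP9 libraries and at 12.9 to 57.0 in P3E3/BMP9.

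Messenger RNAs of this class start with a terminal oligopyrimidine (TOP) tract, through which mTOR controls their translation. The shares given next therefore describe the lists and not the line difference. A C followed by at least 5 pyrimidines, starting within 5 bases of the annotated start, was found in 16 of 40 tested ribosomal protein genes with a promoter in the table (40%) and in 8 of 23 translation factors and snoRNA hosts (34.8%), against 11.9% of all tested genes. A few are shown, from 8 bases before the tract, with the tract in capitals, from the minus strand at chr7:45128722-45128751 (*Rpl13a*), chr10:128626481-128626510 (*Rps26*) and chr9:78481708-78481737 (*Eef1a1*) and the plus strand at chr4:132308668-132308697 (*Snhg12*), GRCm38.p6.
Rpl13a: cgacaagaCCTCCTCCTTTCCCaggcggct
Rps26: cgccggatCCTCTTTCgagtcttggctcca
Eef1a1: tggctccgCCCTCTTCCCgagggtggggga
Snhg12: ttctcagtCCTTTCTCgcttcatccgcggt

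Short transcripts as a whole were lower in P3D8/BMP9. Of the tested transcripts 82.0% had a length in GENCODE vM21. Those under 1 kb had a median log2FC of -0.45, those of 1 to 2 kb -0.22, those of 2 to 4 kb -0.02, those of 4 to 6 kb 0.13 and those over 6 kb 0.26. Spearman's rho of length with log2FC across these 4478 transcripts, which share libraries, was 0.320 in cartilage and 0.0053 in monolayer. Ribosomal protein transcripts had a median length of 799 nt, so their median of -1.23 lay below the -0.45 of transcripts under 1 kb. Replicate 3 of each cartilage lay closest to the other line in the shortest transcripts. In the longer ones the order of these 2 libraries was reversed. Over 6 kb the median deviation from each transcript's mean was 0.033 in P3D8 replicate 3 and 0.053 in P3E3 replicate 3. At 4 to 6 kb it was 0.017 and 0.071. The part of length in the ribosomal result was not tested, and neither was its part in the fibrous matrix list, whose median length was 4724 nt.

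Splicing factors and their kinases went the opposite way to the ribosomal proteins. Of 18 tested, 15 were higher in P3D8/BMP9 and 1 was lower (median 1.66). *Clk1*, a kinase that phosphorylates SR proteins, had 76.1, 91.5 and 57.0 normalized counts in P3D8/BMP9, against 16.9, 18.2 and 15.4 in P3E3/BMP9 (log2FC 2.07), and *Ddx17*, an RNA helicase, had 1221, 1545 and 867 in P3D8/BMP9, against 234, 221 and 208 in P3E3/BMP9 (log2FC 2.41). *Srsf6*, the one member with a single entry, was also the one that was lower (-0.38). The others are counted through 1 of several transcript entries, so that a shift between isoforms and a shift in total level cannot be told apart.

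Of 36 nuclear respiratory chain genes 26 were lower and 2 were higher (median -0.42), and their median length was 763 nt. Of 13 glycolysis and hypoxia genes 8 were lower, among them the isomerase *Gpi1* (-1.41) and the kinase *Pgk1* (-1.09). The desaturase *Scd1* had 7186, 7334 and 6452 normalized counts in P3D8/BMP9, against 16197, 15881 and 22026 in P3E3/BMP9 (log2FC -1.35). Among mitochondrially encoded transcripts *COX1* (0.09) did not pass while *ND3* (-2.21), *COX3* (-1.48) and *ATP6* (-1.38) were lower, out of 6 lower and 1 higher of 13. Of 18 cell cycle genes 5 were higher and 2 lower, beside 21.5% higher and 27.8% lower of all transcripts, and *Cdk1* was at 136 to 178 in P3D8/BMP9 and at 109 to 178 in P3E3/BMP9.

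**Figure D4:**
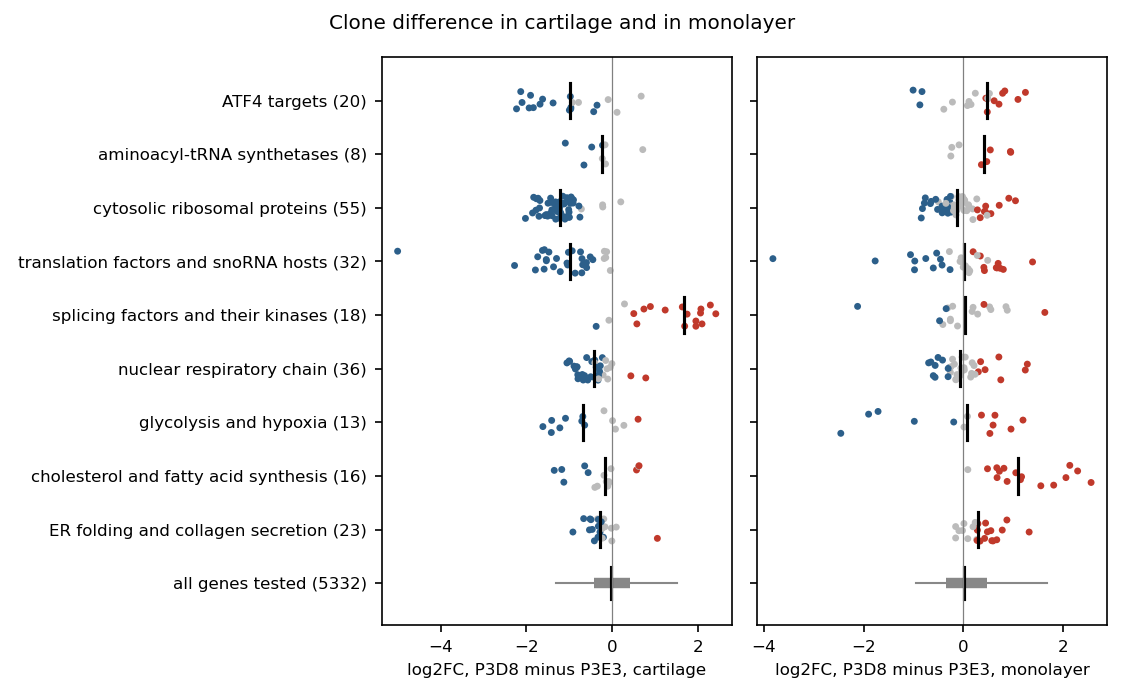
Difference between the lines per gene in cartilage (left, P3D8/BMP9 minus P3E3/BMP9) and in monolayer (right, P3D8 minus P3E3), for 9 gene lists and all 5332 genes. Colours and bars are as in the plot of matrix lists. The ATF4 target list has a median of -0.99 in cartilage and 0.47 in monolayer, and the ribosomal protein list one of -1.23 and -0.13.

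Markers of other cell types moved as well. Of 10 tested glia and neuron markers, out of 17 listed, 8 were lower in P3D8/BMP9 and 2 were higher (median -1.82), and their summed level was 8323 to 8788 normalized counts in P3D8/BMP9 and 6846 to 7570 in P3E3/BMP9, most of it *Stmn2*. *S100b*, which chondrocytes also make, had 1302, 1279 and 1267 in P3D8/BMP9, against 4023, 4930 and 4624 in P3E3/BMP9 (log2FC -1.81), and *Gfap* had a log2FC of -1.75. *Stmn2*, a tubulin-binding protein of neurons, was higher, at 6622 to 7026 in P3D8/BMP9 and at 1202 to 1729 in P3E3/BMP9. Of 17 muscle markers 6 were tested, 5 of them higher and none lower, with summed levels of 1383 to 1467 in P3D8/BMP9 and 689 to 823 in P3E3/BMP9. Of 10 endothelial markers *Flt1* and *Clec14a* were tested and both were higher, while 6 of the 10, *Cdh5* and *Pecam1* among them, were listed at 0. Summed endothelial levels were 336 to 415 in P3D8/BMP9 and 21.4 to 57.5 in P3E3/BMP9. Blood and immune markers summed to 201 to 269 in P3D8/BMP9 and to 189 to 236 in P3E3/BMP9, with *Ptprc*, which every leukocyte carries, listed at 0. The lines are clonal, and the part of these markers in the matrix and chemokine results was not tested.

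The lines were then compared in monolayer to see which differences were also present without BMPs. The 12 libraries were fitted together, with a test of the difference between the 2 line differences. In monolayer 337 of the same 5462 transcripts were higher in P3D8 (6.17%) and 85 lower (1.56%) at the same thresholds, and 1408 (25.8%) and 1215 (22.2%) without the fold limit. The line difference itself differed between cartilage and monolayer in 2471 transcripts (45.2%). Of the 281 transcripts higher in P3D8/BMP9, 72 (25.6%) were also called higher in P3D8 monolayer, and 182 had a line difference that differed, in 165 of which it was larger in cartilage. Of the 199 that were lower, 14 (7.04%) were also called lower in monolayer, and 175 had a line difference that differed, in 173 of which it was larger in cartilage. At an adjusted p under 0.05 alone, 113 of the 281 and 55 of the 199 differed in the same direction in monolayer. The called transcripts were chosen by their cartilage difference, which enters the test of the difference, so the counts are a description. Of the 281 higher transcripts 39, and of the 199 lower ones 59, averaged under 1 normalized count in the monolayers of both lines, too low for the fold threshold to be reached. Cartilage and monolayer differ in BMPs, in growth factors and in culture form at once, and these cannot be told apart.

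Differences present in both cultures included those of *Ccl2*, *Pgm5*, *Clec14a* and *Col1a1*, for which the test of the difference did not pass. *Ccl2* averaged 1161 normalized counts in P3D8 monolayer and 106 in P3E3 monolayer (log2FC 3.49, against 3.75 in cartilage). *Col1a1* averaged 25410 in P3D8 and 9133 in P3E3 monolayer (log2FC 1.47, against 1.53). *Nog* was 2.08 in P3D8 and 9.26 in P3E3 monolayer on average, a log2FC of -2.01, against -2.02 in cartilage. *Cilp*, *Myoc*, *Itga11* and *Panx3* instead averaged under 1 in both monolayers. *Jun*, *Vegfc*, *Fgf10* and *Prrx1* were well counted in both monolayers with line differences of -0.37 to 0.26 on the log2 scale, and were higher in P3D8/BMP9 by 1.36 to 2.82. The *Crabp2* difference, with means of 2518 and 3326 in P3D8 and P3E3 monolayer, was -0.40 there and 2.07 in cartilage.

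In 14 transcripts of 13 genes the line difference was called in opposite directions in the 2 cultures. *Sstr2*, a somatostatin receptor with 2 such transcripts, had by its most counted one 7.46, 4.12 and 7.91 normalized counts in P3D8/BMP9, against 78.9, 70.3 and 67.8 in P3E3/BMP9, while in monolayer it had 243, 284 and 345 in P3D8 and 71.8, 81.8 and 73.7 in P3E3. The order of the lines was thus opposite in the 2 cultures. *Sema3d* had a log2FC of -1.71 in cartilage and 3.17 in monolayer, and *Mmp13* one of -1.52 and 2.83. The cartilage value of *Mmp13* was -1.34 without both cartilage replicates 1, short of the fold threshold. *Svep1* was higher in P3D8/BMP9 (1.83) and lower in P3D8 monolayer (-2.0), with means of 11.1 in P3D8 and 44.3 in P3E3 monolayer. Among gene lists, 15 of 16 cholesterol and fatty acid synthesis genes were higher in P3D8 monolayer and 2 in P3D8/BMP9, where 5 were lower. For ATF4 targets 9 were higher and 3 lower in monolayer, and the difference between cultures passed in 17 of 20.

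**Figure D5:**
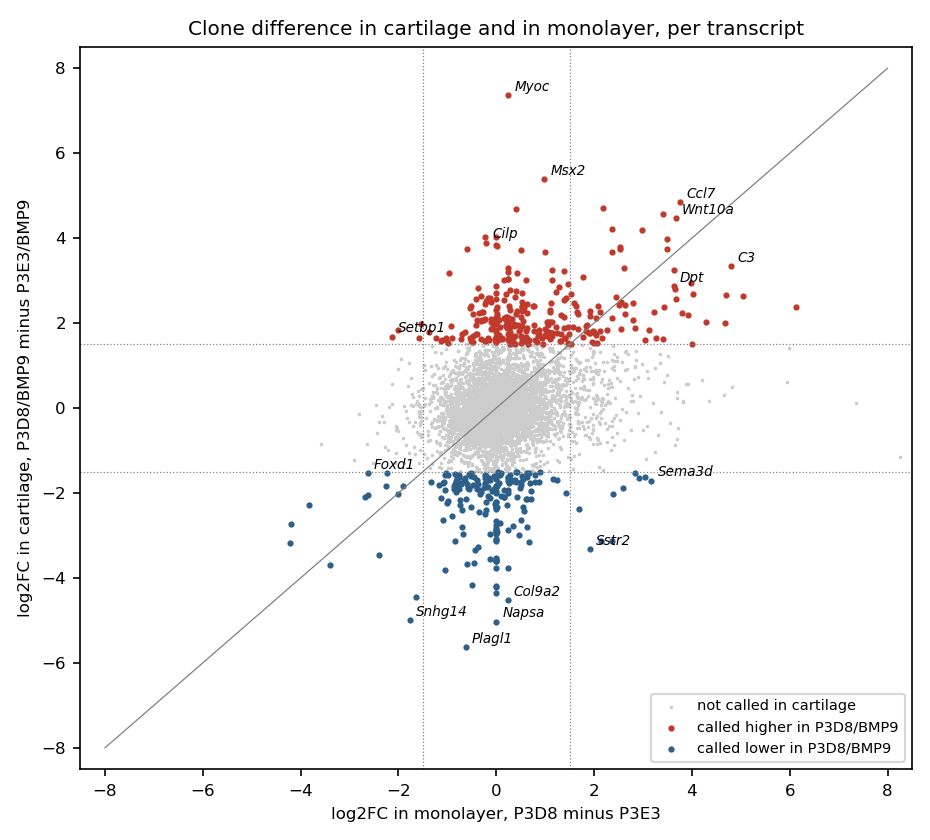
Line difference of each of 5462 transcripts in cartilage (vertical, P3D8/BMP9 minus P3E3/BMP9) and in monolayer (horizontal, P3D8 minus P3E3), both as log2FC. Red and blue points were called higher and lower in P3D8/BMP9, grey points were not called, dotted lines mark 1.5 and the solid line equal differences. Most called transcripts lie near 0 on the horizontal axis, and 86 of the 480 were called in the same direction in monolayer. Without the fold limit, 168 of the 480 passed in that direction in monolayer.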

How the data were processed

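Polyadenylated RNA was sequenced as 100-bp paired-end reads. The submitters' processing notes name HISAT2, HTSeq, DESeq2 and mm10, with versions not given in the sources used here. The deposited signal values are counts per RefSeq transcript that the authors divided by a size factor per library. Values were whole multiples of 1 read within 0.01, so reads were recovered for alternatives. The authors' fold changes, group means and false discovery rates were not used. Libraries were grouped by title, with 3 independent cultures per group.

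Transcripts with a mean of 10 or more were tested with limma 3.58.1 (R 4.3.3) on log2(normalized count + 1), with mean-dependent variance, so fold changes of low transcripts are understated. The 12-library fit tested the interaction of line and culture. Alternatives used edgeR 4.0.16 and DESeq2 1.42.0 on recovered reads. Genes were represented by their most counted transcript. Intervals and tests cover the spread between cultures of 1 clone per line.

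The rule for naming took 12 transcripts per direction by size, the 10 most counted, the 8 widest ranges within each line, up to 6 members per list by size with its defining members, and the genes that the study names. Members and lists were chosen with earlier results of these data known. Named outside the rule, after their values were seen, were members that did not pass or had small differences, the remaining members of a motif or marker set, cell type markers listed at 0, *Sstr2*, *Bglap*, *C2*, *Cdk1*, *Got1*, *Nupr1*, *Ddit3*, *Hoxd13*, *Hoxa13*, *Hoxa11*, *S100b*, *Gfap*, *Eln*, *Ntn1*, *Tbx18*, *Dlx4* and *Lpar2*. A few members are not reported here. Promoter and start sequences came from RefSeq for GRCm38.p6, and transcript lengths from GENCODE.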

Additional observations from a re-analysis of the deposited data

Results flagged for a closer look

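The line difference in cartilage and that in monolayer were set side by side for 21 of the 24 transcripts with the largest cartilage differences, those that passed the interaction test, and for transcripts called in opposite directions. Both sets were chosen by differences that enter the interaction, so the values are a description and no test. The values below are the cartilage difference (P3D8/BMP9 minus P3E3/BMP9) minus the monolayer difference (P3D8 minus P3E3), on the log2 scale.

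Of transcripts higher in P3D8/BMP9, the value was 7.13 for *Myoc*, 4.10 for *Cilp*, 2.54 for *Cilp2*, 2.12 for *Tnfrsf1b*, 1.22 for *Col8a1*, 1.19 for *Reep1*, 1.16 for *Clstn2* and 1.09 for *Ccl7*. It was -1.46 for *C3*, whose difference was larger in monolayer. Of transcripts lower in P3D8/BMP9, it was -5.03 for *Napsa*, -5.01 for *Plagl1*, -4.76 for *Col9a2*, -4.22 for *Mall*, -4.02 for *Srpx*, -3.77 for *Chad*, -3.61 for *Tspan18*, -3.61 for *Col14a1*, -3.43 for *Ihh*, -3.20 for *Angpt4*, -2.91 for *Adgrd1* and -2.88 for *Sox8*.

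Among transcripts called in opposite directions, those higher in P3D8/BMP9 and lower in P3D8 monolayer were *Svep1* (3.83), *Setbp1* (3.82), *Rasl11a* (3.53) and *Bdkrb1* (3.22). Those lower in P3D8/BMP9 and higher in P3D8 monolayer included *Nfe2l3* (-5.50), *Sstr2* (-5.24 and -5.28 for its 2 transcripts), *Sema3d* (-4.88), *Smpdl3a* (-4.65), *Galnt15* (-4.55), *Tubb3* (-4.43), *Mmp13* (-4.36) and *Kctd4* (-4.06). Without both cartilage replicates 1, the cartilage log2FC was -1.44 for *Tubb3* and -1.34 for *Mmp13*, short of the fold threshold.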

How the results depend on the processing

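The 281 higher and 199 lower calls became 102 and 110 at a mean of at least 50 and 654 and 305 with no filter on the mean. With genes of 1 entry alone they were 139 and 156. The share of higher calls was 58.5% as reported, 48.1% at a mean of at least 50, 47.1% with 1 entry and 68.2% with no filter. Grouped by cell line entry, limma called 0 higher and 0 lower (14 at an unadjusted p under 0.05; no other tool was run so), and named genes turned sign at adjusted p = 0.998 (*Aldh1a3* 0.087, *Batf3* 0.48, *Cdk4* -0.049, *Fmn1* -0.031, *Gli1* 0.011, *Ihh* 0.13, *Itga4* 0.22, *Nrtn* 0.24, *Plod2* -0.082, *Tgfb1* 0.0058, *Tubb3* 0.12). With entries summed to genes *Nuak1* was 0.73, against -0.15. Without the libraries with a conflicting entry, 418 of the 480 calls were shared. edgeR shared 473 and DESeq2 470. Leaving out 1 library gave 266 to 307 higher and 190 to 225 lower calls. The replicate block gave 276 and 199 calls. Deviations from the mean of each line were correlated between same-numbered libraries, at -0.016, -0.15 and -0.29. The numbers thus gave no sign of pairing. Calls shared with monolayer, 86 as reported, were 52 at a pseudocount of 5, 48 at a mean of at least 50 and 76 to 104 without 1 replicate number, and calls with a different line difference, 357 as reported, were 175 at a mean of at least 50 and 259 to 429 without 1 replicate number. The causes were not tested. Of the named genes' values under alternatives, 5516 kept their side of the threshold, 436 lost it, 49 gained it and 12 turned sign. Of 310 named genes 265 passed as reported, and none of them passed when grouped by cell line entry. That setting is included in these counts.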
